A study of Homo sapiens with 6 samples.

Results

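The genes described here are the 4 receptors of the epidermal growth factor (EGF) receptor family, EGFR, ERBB2, ERBB3 and ERBB4, and 6 ligands that bind them, EGF, TGFA, AREG, EREG, HBEGF and BTC. They were chosen by name, and the rule uses no measured value, although earlier results of these data were known when it was written. The reason given is that SPINK1, the secreted protease inhibitor that the study is built around, is reported to act through this receptor family. All 10 were found among the 43317 gene names of the array, by 18 probes. All RNA came from 22RV1 prostate cancer cells, an established human line labelled as SPINK1 positive. Stable lines had been made with the lentiviral vectors pLemiR-338-5p, pLemiR-421 or the control pLemiR-RFP, and all were kept in puromycin. On each of 6 Agilent 2-colour arrays, control RNA was in Cy3 and RNA of 1 microRNA line in Cy5. There were 3 arrays of the miR-338-5p line (replicates 1, 2 and 3) and 3 of the miR-421 line (a sample labelled as a pool, and replicates 1 and 2). What was pooled, whether a line was 1 clone, and whether replicates were separate cultures are not given in the labels. The sample titles put a letter C before each replicate number, which the labels do not explain. The p-values therefore measure only the spread between these samples. Whether that spread is technical or lies between separate cell populations is not known.

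The family works by pairing. A ligand is made as a membrane-bound precursor and is shed by a protease of the ADAM family. Its binding lets the receptor dimerise with another member of the family and phosphorylate tyrosines on its tail, which dock adaptors for the RAS and MAP kinase cascade and for PI3 kinase. ERBB2 has no known ligand of its own and ERBB3 has little kinase activity, so both signal mainly as partners, and in prostate epithelium the family is known as a route of growth control.

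The mature sequences of both microRNAs are shown because they are the only designed difference between the lines and the control. They are from RefSeq on GRCh38.p14, 5′ to 3′, and the capitals mark the seed, bases 2 to 8, which pairs with a target.
miR-338-5p (chr17:81125923-81125944, minus strand): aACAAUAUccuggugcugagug
miR-421 (chrX:74218392-74218414, minus strand): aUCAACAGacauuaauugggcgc
The seeds differ, so the microRNAs belong to different seed families. The site complementary to the miR-338-5p seed, ATATTGT, was in 0.478% of the array's 58201 probe sequences, and CTGTTGA, complementary to the miR-421 seed, was in 0.558%. Neither was in any of the 18 member probes, searched on the transcript strand. A probe covers only 60 bases of a transcript, and the remaining bases of the members' transcripts were not searched.

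Signal is given as log2 intensity, and a difference as the log2 ratio of Cy5 over Cy3, so that a negative value is a lower signal in the microRNA line. A probe was tested when either dye was well above background on at least 3 of the 6 arrays. Of the member probes 13 passed, and they cover 8 members. A gene that has several tested probes is counted by the one of highest mean intensity. A call is an adjusted p under 0.05 in a limma fit across all tested probes, adjusted by Benjamini-Hochberg. The labelled cell type was checked against its markers: 9 of 9 prostate luminal genes and 5 of 5 epithelial genes were detected, and of the basal genes TP63, KRT5 and KRT14 none was tested. SPINK1 was lower on all 6 arrays, at -3.04, -2.10 and -6.78 on miR-338-5p replicates 1, 2 and 3, and at -7.01, -6.68 and -6.15 on the miR-421 pool, replicate 1 and replicate 2.

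In the miR-338-5p line EGFR was lower and TGFA was higher than in control. In the miR-421 line ERBB4 was lower and TGFA was higher. In bulk RNA, fewer cells that express a gene and less of its RNA in each cell cannot be told apart. The other 5 members with a tested probe, ERBB2, ERBB3, AREG, HBEGF and BTC, did not pass the threshold in either line. That is 2 of 8 members called in each comparison, or 25%. Over all genes, 9.25% were called in the miR-338-5p line (3.99% higher, 5.26% lower) and 22.7% in the miR-421 line (10% higher, 12.6% lower). The share for miR-421 is therefore near its background. That for miR-338-5p rests on 2 genes, and whether it exceeds its background was not tested. Of these, TGFA had an adjusted p of 0.048 by limma and was called in 3 of 17 alternatives. By probe, 2 of 13 were called in each comparison, against 9% and 21.6% of all probes. The median log2 ratio of the 8 members was 0.17 in the miR-338-5p line and 0.03 in the miR-421 line, beside 0 and 0.01 over all genes. No member passed the test of the difference between the lines by limma, where 0.0461% of genes and 0.0473% of probes did. 1 of the 8, EGFR, had an unadjusted p under 0.05 there. The groups of 3 arrays did not overlap for 3 of the 13 tested probes, and for 19.8% of all probes measured on every array. The counts in both comparisons with control changed when single arrays were left out, not always downwards. For miR-338-5p, leaving out miR-421 replicate 1 left 1 member called, while the calls over all probes rose to 13.3%. For miR-421, leaving out miR-338-5p replicate 2 gave 3 members called, where 20% of all probes were. In the fits that follow, both the counts and the calls over all probes fell. Without miR-338-5p replicate 1, 2 or 3, or without miR-421 replicate 2, 0 members were called for miR-338-5p. Over all probes, 2.07%, 2.11%, 1.45% and 2.73% were called in those fits. Without miR-421 replicate 1 or replicate 2, 0 members were called for miR-421, where 10.8% and 2.29% of all probes were.

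EGFR, the founding receptor of the family, was lower on every miR-338-5p array. Its main probe, A_23_P215790, lies at chr7:55274841-55274900 on the plus strand (hg19) and starts at base 5409 of NM_005228. The log2 ratios were -0.36, -0.49 and -0.48 on miR-338-5p replicates 1, 2 and 3. On the miR-421 arrays they were 0.15 for the pool, -0.12 for replicate 1 and -0.01 for replicate 2. The 3 miR-338-5p values sat close together and below all 3 miR-421 values. The mean was -0.44 ± 0.07 (SD, n = 3) for miR-338-5p, 73.5% of control, with a 95% confidence interval of -0.61 to -0.28 and an adjusted p of 0.022 by limma. For miR-421 the mean was 0 ± 0.14 (SD, n = 3), with an adjusted p of 0.97 by limma and an interval of -0.16 to 0.17. The difference between the lines was -0.45, with an interval of -0.69 to -0.21. Its unadjusted p was 0.0036 and its adjusted p, by limma, was 0.16, so the lines were not told apart after adjustment.

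The control channel hardly varied for this probe. Cy3 stood between 6.65 and 6.73 on all 6 arrays. Cy5 stood at 6.35, 6.21 and 6.25 in the miR-338-5p line and at 6.86, 6.52 and 6.72 in the miR-421 line. The lower ratios of miR-338-5p therefore came with a lower Cy5 signal and not with a higher control signal. The signal was nonetheless dim, and the size of the fall depended on how dim spots were treated. An offset of 50 was added to each corrected intensity, which by construction pulls the ratios of dim spots towards 0. The image software's own ratio, without that offset, was -0.81, -1.41 and -1.32 on the miR-338-5p arrays and 0.31, -0.10 and -0.03 on the miR-421 arrays, a mean of -1.18 against 0.06. The authors' deposited table gave EGFR a mean of -1.05 in the miR-338-5p line and 0.22 in the miR-421 line. Over 17 alternatives the sign held in all and the call in 12, with adjusted p by limma between 0.0094 and 0.092. The 5 that lost the call were the fits without miR-338-5p replicate 1, 2 or 3, without miR-421 replicate 2, and on the 3 miR-338-5p arrays alone, all fits to fewer arrays.

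A second EGFR probe, A_33_P3351944 at chr7:55224558-55224617 (hg19, plus strand), belongs to another transcript of the gene, NM_201283. Its log2 ratios were -0.12, -0.13 and -0.09 on the miR-338-5p arrays and 0.06, 0.13 and 0.03 on the miR-421 arrays. All values of the miR-338-5p line were below 0 and all of the miR-421 line above it. None of its tests passed: by limma the adjusted p was 0.2 for miR-338-5p, 0.32 for miR-421 and 0.32 for the difference of -0.19. The probe was near background, with Cy5 well above it on 1 of 3 miR-338-5p arrays and on 3 of 3 miR-421 arrays. The third EGFR probe, A_33_P3351955, was above background on 1 of 6 arrays in Cy3 and on none in Cy5, and was not tested.

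ERBB2, the partner receptor also known as HER2, was measured by 10 spots of probe A_23_P89249 on each array (chr17:37884829-37884888, hg19, plus strand). The log2 ratios were 0.37, -0.34 and 0.69 on miR-338-5p replicates 1, 2 and 3. On the miR-421 arrays they were 0.40 for the pool, 0.77 for replicate 1 and 0.68 for replicate 2. In the miR-421 line all 3 were above 0, while replicate 2 of the miR-338-5p line fell on the other side of 0 from replicates 1 and 3. The means were 0.24 ± 0.53 (SD, n = 3; adjusted p = 0.49 by limma) and 0.62 ± 0.20 (SD, n = 3; adjusted p = 0.069 by limma). The miR-421 value was not called as reported, and it was called under 4 of 17 alternatives. A second probe, A_33_P3292596, for an Ensembl transcript of ERBB2, was dim, with ratios of -0.17, -0.17 and -0.09 on the miR-338-5p arrays and -0.07, 0.04 and 0.03 on the miR-421 arrays. These groups did not overlap, the difference of -0.14 had an adjusted p of 0.46 by limma, and the 2 probes of this gene stood on opposite sides of 0 in the miR-338-5p means.

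ERBB3, the receptor that couples most directly to PI3 kinase, had its main probe at chr12:56496160-56496219 (hg19, plus strand). The log2 ratios were 0.50, 0.05 and -0.06 on the miR-338-5p arrays and 0.41, 0.27 and 0.64 on the miR-421 pool, replicate 1 and replicate 2. The ranges overlapped, since miR-338-5p replicate 1 lay among the miR-421 values. The means were 0.16 ± 0.30 (SD, n = 3; adjusted p = 0.48 by limma) and 0.44 ± 0.19 (SD, n = 3; adjusted p = 0.056 by limma). The miR-421 value was called under 3 of 17 alternatives. Probe A_33_P3211569 gave 0.16 ± 0.20 and 0.14 ± 0.14 (SD, n = 3 each), and probe A_33_P3280471, above background on 4 of 6 arrays in either dye, gave -0.04 ± 0.05 and 0.01 ± 0.11 (SD, n = 3 each). None of these tests passed the threshold.

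ERBB4, a receptor for the neuregulins as well as for HBEGF and BTC, was lower on all 6 arrays. Its tested probe, A_32_P183765, lies at chr2:212240515-212240574 on the minus strand (hg19) and starts at base 11790 of NM_005235. The log2 ratios were -0.46, -0.91 and -0.66 on the miR-421 pool, replicate 1 and replicate 2. On miR-338-5p replicates 1, 2 and 3 they were -0.19, -0.16 and -0.75. Replicate 3 of the miR-338-5p line thus lay within the miR-421 range, and replicates 1 and 2 lay above it. The miR-421 mean was -0.68 ± 0.22 (SD, n = 3), 62.6% of control, with a 95% interval of -1.02 to -0.33 and an adjusted p of 0.025 by limma. The miR-338-5p mean was -0.37 ± 0.33 (SD, n = 3), with an adjusted p of 0.16 by limma. The difference of 0.31 between the lines had an interval of -0.17 to 0.79 and an adjusted p of 0.55 by limma. As no dye was swapped and the lines share the control line, a dye bias or a trait of the control cannot be told apart from a fall shared by both lines.

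Cy3 for ERBB4 stood between 7.18 and 7.39 and Cy5 between 6.49 and 7.16. Under the image software's ratio the miR-421 mean was -1.26, again larger than with the offset. The miR-421 call held in 15 of 17 alternatives and the sign in all. It was lost without miR-421 replicate 1 (-0.56, adjusted p = 0.089 by limma) and without miR-421 replicate 2 (-0.68, adjusted p = 0.11 by limma). The other ERBB4 probe, A_33_P3211558, had neither dye well above background on an array and was not tested.

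**Figure D1:**
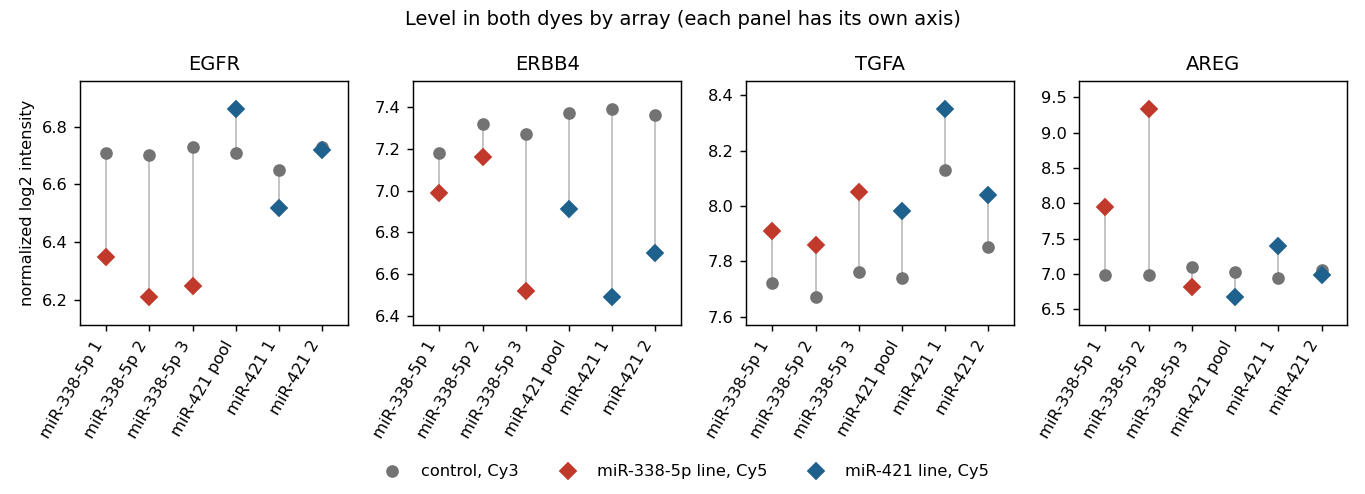
Normalized log2 intensity of the main probes of EGFR, ERBB4, TGFA and AREG on each array, with control (Cy3) as grey circles and the microRNA line (Cy5) as diamonds, each panel on its own axis. The grey circles of EGFR stay between 6.65 and 6.73 while the Cy5 diamonds of the miR-338-5p line lie at 6.21 to 6.35, and AREG in Cy5 reaches 9.33 on miR-338-5p replicate 2.

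Among the ligands, TGFA, which binds EGFR, was slightly higher on all 6 arrays. Its tested probe, A_33_P3408203, lies at chr2:70683472-70683531 on the minus strand (hg19). It is printed because the TGFA result rests on these bases alone.
TGFA probe: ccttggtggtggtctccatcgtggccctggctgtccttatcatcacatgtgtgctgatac
The log2 ratios were 0.19, 0.19 and 0.29 on miR-338-5p replicates 1, 2 and 3, and 0.25, 0.22 and 0.19 on the miR-421 pool, replicate 1 and replicate 2. No array departed from the rest, and the groups overlapped fully. The means were 0.22 ± 0.06 (SD, n = 3; adjusted p = 0.048 by limma), 117% of control, and 0.22 ± 0.03 (SD, n = 3; adjusted p = 0.031 by limma), 116% of control. The difference between the lines was 0, with an interval of -0.17 to 0.18.

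Both TGFA calls lay at the edge of the threshold. Of 17 alternatives, 3 kept the call for miR-338-5p and 5 kept it for miR-421. With each array centred on its median in place of the intensity-dependent loess curve, the means were 0.03 and 0.09. Under the image software's ratio they were 0.34 (adjusted p = 0.26 by limma) and 0.43 (adjusted p = 0.096 by limma). Leaving out any 1 of the 6 arrays ended the miR-338-5p call, and leaving out miR-338-5p replicate 1 or any of the 3 miR-421 arrays ended the miR-421 call. As no dye was swapped, a dye bias of the probe and a shared rise in both lines cannot be told apart here. The second TGFA probe, A_23_P377291, had neither dye well above background on an array and was not tested.

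**Figure D2:**
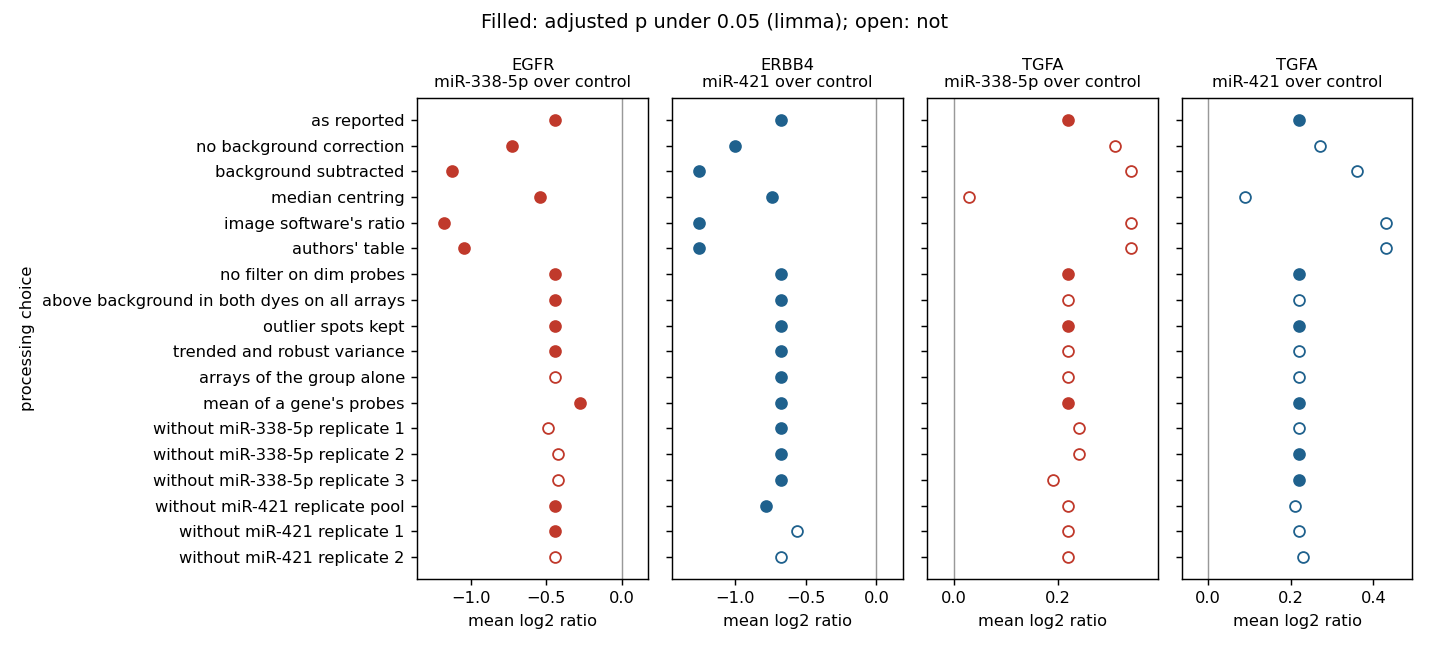
Mean log2 ratio of EGFR (miR-338-5p over control), ERBB4 (miR-421 over control) and TGFA (both) as reported and under each of the 17 other processing choices, filled where the adjusted p by limma was under 0.05. Every EGFR point lies between -1.18 and -0.28 and every ERBB4 point between -1.26 and -0.56, while TGFA for miR-338-5p runs from 0.03 to 0.34.

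AREG (amphiregulin), the EGFR ligand with the widest spread, set the miR-338-5p arrays apart from each other. Its main probe, A_23_P259071, lies at chr4:75320518-75320577 (hg19, plus strand). The log2 ratios were 0.97, 2.34 and -0.27 on miR-338-5p replicates 1, 2 and 3, and -0.35, 0.45 and -0.06 on the miR-421 pool, replicate 1 and replicate 2. Replicates 1 and 2 of the miR-338-5p line were above every miR-421 array, and replicate 3 was within their range. Cy5 was 9.33 on replicate 2, with Cy3 between 6.94 and 7.09 on all 6 arrays. The means were 1.01 ± 1.31 (SD, n = 3; adjusted p = 0.22 by limma) and 0.01 ± 0.41 (SD, n = 3; adjusted p = 0.99 by limma). Without miR-338-5p replicate 2 the first mean was 0.35, and without replicate 3 it was 1.65; neither passed the test.

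A second AREG probe, A_33_P3419190 at chr4:75318293-75318352 (hg19, plus strand), gave the same order of the miR-338-5p arrays from other bases of the transcript, which is why its sequence is shown.
AREG second probe: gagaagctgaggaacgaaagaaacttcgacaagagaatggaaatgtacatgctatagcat
Its log2 ratios were 0.57, 1.61 and -0.23 on miR-338-5p replicates 1, 2 and 3, and -0.12, 0.16 and -0.14 on the miR-421 pool, replicate 1 and replicate 2. The authors' deposited table, with 1 value a gene, listed AREG at 1.31, 2.96 and -0.60 on the miR-338-5p arrays.

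The order of the miR-338-5p arrays differed between members. On replicate 3, SPINK1, ERBB4 and the main AREG probe stood within the range of the miR-421 arrays, and the second AREG probe, at -0.23, stood below it. On the same array EGFR, at -0.48, was as low as on replicate 2 and lower than on any miR-421 array. How far this array's difference from replicates 1 and 2 bears on the ERBB4 and AREG values was not tested.

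The remaining ligands gave little signal. BTC (betacellulin), which binds EGFR and ERBB4, had log2 ratios of 0.15, 0.37 and 0.01 on the miR-338-5p arrays and 0.07, -0.02 and -0.11 on the miR-421 arrays. The highest BTC value was on the array where AREG was highest, and neither mean passed the test (adjusted p = 0.23 and 0.9 by limma). HBEGF, the heparin-binding ligand, passed the filter by 3 arrays only, and its ratios lay between -0.02 and 0.10. EGF itself and EREG (epiregulin) had neither dye well above background on an array, so they have no test. A level below background on these arrays is a limit of detection and does not show that the transcript is absent.

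By the rule of root mean square difference over the 6 arrays, among 13428 genes, the nearest to EGFR were MGAT4A (0.0701), ARHGAP19 (0.097) and SLC25A23 (0.0974). MGAT4A had log2 ratios of -0.36, -0.52 and -0.47 on the miR-338-5p arrays and 0.24, 0.02 and 0 on the miR-421 arrays. Among the nearest to ERBB4 were RAB3IP (0.0811) and RMI2 (0.0943), of which RAB3IP stood at -0.11, -0.21 and -0.84 and at -0.55, -1.03 and -0.68. The nearest to TGFA were CRYAB (0.0613), TCP11L1 (0.0616) and LRRC46 (0.0694).

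A list of 72 other genes of the pathway was then read from the same fit, and 63 had a tested probe. For miR-338-5p, 1 was higher and 3 were lower, 6.35% of those tested. For miR-421, 8 were higher and 5 were lower, 20.6% of those tested. Both shares are near the shares over all genes given above, and the list's median was -0.04 and -0.06. None was called for the difference between the lines by limma, where 7 had an unadjusted p under 0.05. The 2 comparisons share the control line, and 3 genes were called in both. With miR-421 replicate 1 left out, the count for miR-338-5p stayed at 4, while the calls over all probes rose to 13.3%. In the following fits these counts fell, as did the calls over all probes. The count for miR-338-5p fell to 1 without miR-338-5p replicate 1 or 2 or the miR-421 pool, and to 2 without miR-338-5p replicate 3 or miR-421 replicate 2. The count for miR-421 fell to 8 without the pool, to 4 without replicate 1 and to 1 without replicate 2. Of all probes, 1.45% to 4.2% were called for miR-338-5p in the fits where its count fell, and 12.4%, 10.8% and 2.29% for miR-421.

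Upstream of the receptors, the other ligands were mostly below background: of EPGN and the neuregulins NRG1 to NRG4, only NRG3 had a tested probe. Of 6 genes for ligand shedding, RHBDF2 was lower in the miR-421 line. RHBDF2 is an inactive rhomboid protein that escorts the sheddase ADAM17, and its log2 ratios were -0.53, -0.96 and -0.40 on the miR-421 arrays (mean -0.63 ± 0.29 (SD, n = 3), adjusted p = 0.039 by limma). It stood at -0.90, -0.28 and -0.32 on the miR-338-5p arrays, where it was not called (adjusted p = 0.11 by limma). ADAM17 itself did not pass in either line.

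Inside the cell, MAP2K1, the MAP kinase kinase MEK1, was lower in both lines. Its log2 ratios were -0.94, -1.04 and -1.38 on the miR-338-5p arrays and -1.06, -0.79 and -1.16 on the miR-421 arrays. The signal was 46% of control (adjusted p = 0.0081 by limma) and 50% of control (adjusted p = 0.0058 by limma), and every array was below 0. The difference between the lines was -0.12 (adjusted p = 0.79 by limma). No dye was swapped and both lines share the control line. A change in both lines, a dye bias of the probe and a trait of the control therefore cannot be told apart. Of the other 9 genes from RAS to MAP kinase, only MAP2K2, the second MEK, was called, higher in the miR-421 line at 0.28 ± 0.13 (SD, n = 3; adjusted p = 0.049 by limma). Among the adaptors CRK was lower in the miR-421 line (-0.21 ± 0.06 (SD, n = 3), adjusted p = 0.047 by limma) and GAB2 was higher (0.41 ± 0.18 (SD, n = 3), adjusted p = 0.021 by limma). On the miR-338-5p arrays CRK stood at -0.09, -0.25 and -0.13 and GAB2 at 0.15, 0.33 and 0.2. Neither was called there (adjusted p = 0.14 and 0.13 by limma). For CRK and GAB2, as for MAP2K1, a shared change, a dye bias and a trait of the control cannot be told apart. STAT5B was higher in the miR-421 line at 0.44 ± 0.11 (SD, n = 3; adjusted p = 0.043 by limma). MAP2K2, GAB2 and STAT5B were named after their values were seen, because they complete the 13 genes called for miR-421. None of the 8 tested genes of PI3 kinase and AKT was called in either line by limma, where 2 and 3 had an unadjusted p under 0.05.

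Among 16 genes that restrain the receptors or their cascade, 1 was called in the miR-338-5p line (6.25%, beside 9.25% of all genes) and 5 in the miR-421 line (31.2%, beside 22.7%). LRIG1, a membrane protein that promotes loss of EGF family receptors, stood at 0.85, 0.89 and 0.64 on the miR-421 arrays, 173% of control (adjusted p = 0.01 by limma). Its miR-338-5p values of 0.11, 0.52 and -0.03 were all lower, but the difference of -0.59 between the lines was not called (adjusted p = 0.22 by limma). The groups did not overlap for 19.8% of all probes either. SPRY1 and SPRY4, feedback inhibitors of the RAS and MAP kinase cascade, were also higher in the miR-421 line, at 0.59 ± 0.28 and 0.45 ± 0.06 (SD, n = 3 each; adjusted p = 0.029 and 0.016 by limma). The SPRY4 probe was near background, with Cy3 at most 6.12 and well above background on 5 of 6 arrays. Each of these genes had 2 tested probes, and only the one of highest mean intensity is given. SOCS4 and SOCS5, which act on receptor turnover, were lower in the miR-421 line, at -0.81 ± 0.48 and -0.31 ± 0.11 (SD, n = 3 each; adjusted p = 0.049 and 0.029 by limma). SOCS5 was lower in the miR-338-5p line too, with the same mean of -0.31 ± 0.11 (SD, n = 3; adjusted p = 0.046 by limma). For SOCS5, as for MAP2K1, a fall shared by both lines, a dye bias and a trait of the control cannot be told apart.

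Of 10 tested early response genes, which are induced when the cascade is active, JUN was higher in both lines. JUN stood at 1.52, 1.31 and 1.29 on the miR-338-5p arrays (adjusted p = 0.025 by limma) and at 0.84, 0.24 and 1.57 on the miR-421 arrays (adjusted p = 0.043 by limma). As for MAP2K1, a rise shared by both lines, a dye bias and a trait of the control cannot be told apart. EGR1, another immediate early factor, was lower in the miR-338-5p line, at -0.68, -0.84 and -1.92 (adjusted p = 0.038 by limma), and had a mean of -0.54 ± 0.09 (SD, n = 3) in the miR-421 line without passing (adjusted p = 0.15 by limma). DUSP4, a phosphatase induced by the cascade that acts on MAP kinases, was higher in the miR-421 line at 0.84 ± 0.36 (SD, n = 3; adjusted p = 0.015 by limma). DUSP4 was also above 0 on the miR-338-5p arrays, at 0.36, 0.35 and 0.69, without passing (adjusted p = 0.099 by limma). For DUSP4, as for JUN, a shared rise, a dye bias and a trait of the control cannot be told apart. FOS, MYC, DUSP6, ETV4, ETV5, IER3 and CCND1 were not called in either line. MYC stood at -0.23, -2.2 and -0.2 on the miR-421 pool, replicate 1 and replicate 2 (adjusted p = 0.16 by limma). JUN and EGR1, both early response genes, thus moved in opposite directions in the miR-338-5p line.

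**Figure D3:**
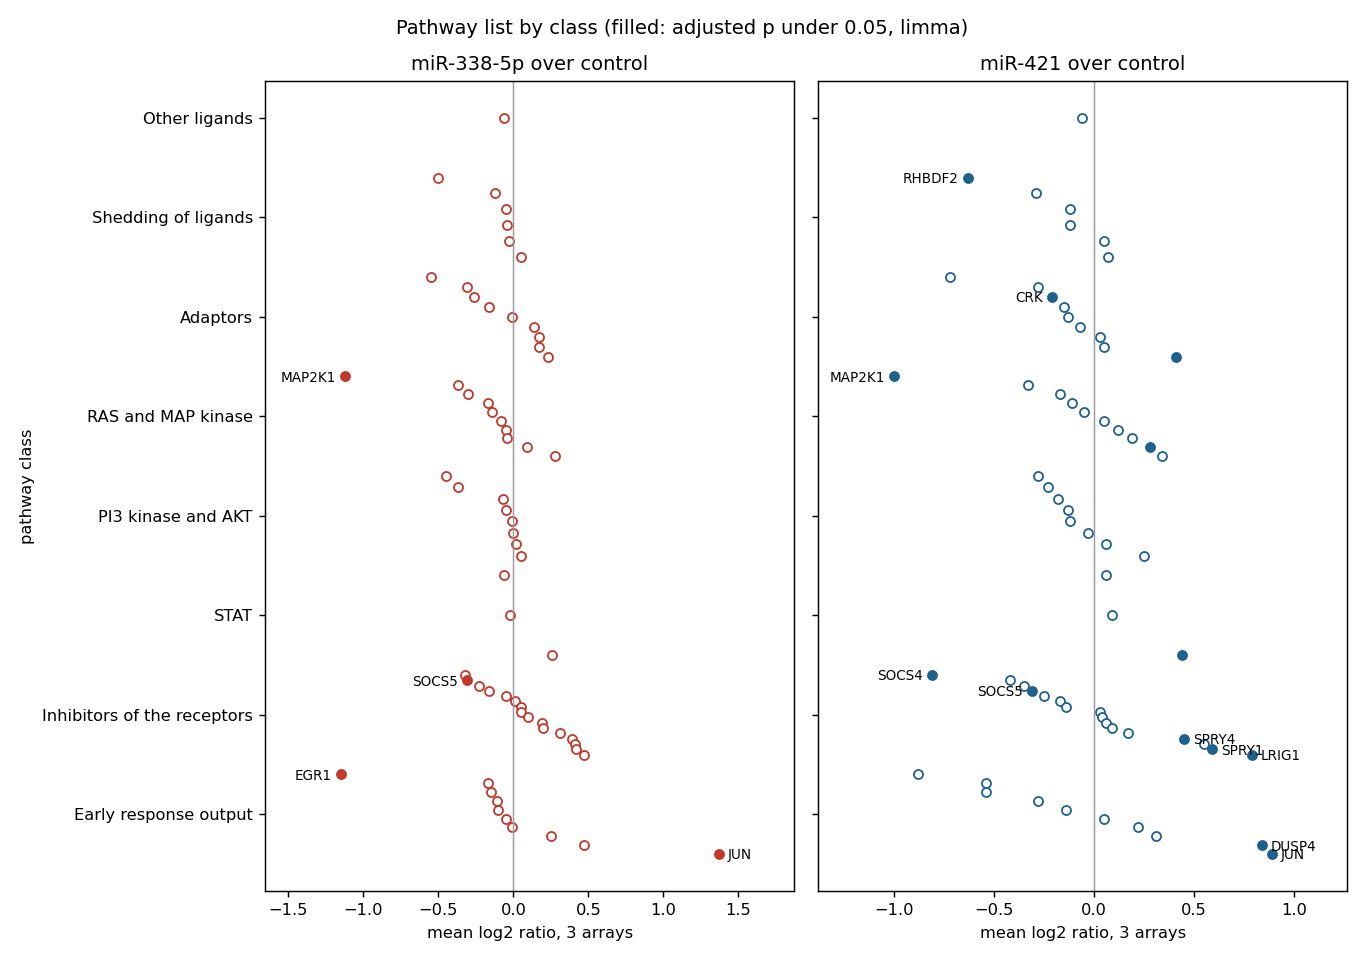
Mean log2 ratio over 3 arrays of each tested gene of the pathway list, by class, for miR-338-5p (left) and miR-421 (right), filled where the adjusted p by limma was under 0.05 and named by rule. MAP2K1 lies at -1.12 and -1 and JUN at 1.37 and 0.89, with most genes of each class unfilled and close to 0.

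Markers of other cell types were read beside these groups. Of 17 such genes 10 were tested, none was called in the miR-338-5p line, and 2 were higher in the miR-421 line, LUM among them (2.14 ± 0.73 (SD, n = 3), adjusted p = 0.044 by limma). The summed intensity of the 17 was 1284 to 1322 in control, 1183 to 1666 in the miR-338-5p line and 1607 to 2431 in the miR-421 line. Of these genes 6 were not above background in control on any array. Their part in the miR-421 values was not tested.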

How the data were processed

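Total RNA of the microRNA lines and the control was hybridised to 6 arrays, all on 1 slide. The deposited files hold mean and local background intensity of each spot in both dyes, and a log10 ratio of Cy5 over Cy3, as Feature Extraction 11.5.1.1 wrote them, per the file headers. The authors' deposited table holds log2 ratios, 1 a gene; against the image software's ratio its slope was 0.999 to 1 and r 0.988 to 0.999 across genes of each array, so scale and direction match. How the authors averaged probes is not given in the sources used here.

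Intensities were corrected by normexp (offset 50) and normalized within arrays by loess with limma 3.58.1 in R 4.3.3. Control spots and outlier spots were left out, and spots of a probe were averaged. Of 58201 probes, 27503 passed the filter (Cy3 or Cy5 well above background on 3 or more arrays). All 6 arrays entered 1 fit with a mean per group, tested against 0 and against each other (eBayes, two-sided, Benjamini-Hochberg at 0.05); if 1 control culture served all arrays, a test against 0 does not hold the spread among control cultures. Levels were scaled between arrays by Aquantile. Gene spots well above background in Cy3 made up 47.9%, 47.6% and 47.3% on miR-338-5p replicates 1, 2 and 3. On the miR-421 pool, replicate 1 and replicate 2 they made up 44.4%, 44.3% and 44.4%. The control channel thus differed between the groups of arrays, and how far this bears on the comparison of the lines was not tested. In Cy5 the share was 41.9% to 48.3%. None was saturated, and the number of arrays limits the precision.

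Accessions of 17 of the 18 member probes were found in the RefSeq table; exon and UTR annotation was not used here. Named were all members, SPINK1, from the pathway list at most the 5 largest rises and falls called with 1 sign on all 3 arrays of a group, and for each called member the 3 nearest genes with an NM accession. A few genes that these rules name are not reported here. The members and lists were chosen with earlier results of these data known. Alternatives covered background correction, normalization, source of the ratio, filters, outlier spots, variance model, arrays in the fit, probes per gene, each array left out and the label number as a block.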

Additional observations from a re-analysis of the deposited data

Results flagged for a closer look

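In the control channel, the level of ERBB2 on the array of the miR-421 pool was 10.11, apart from 5 other arrays that reached up to 10.25. Its gap to the next array was 0.839 of the whole range. The levels of 13 tested probes of the family were examined this way over 6 arrays, and chance alone sets about 1 in 20 groups apart.

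The EGFR probe A_33_P3351944 was below 0 on every miR-338-5p array and above 0 on every miR-421 array. The difference of -0.19 was tested and did not pass (adjusted p = 0.32 by limma).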

How the results depend on the processing

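For the difference between the lines, 0 members and 0 pathway genes were called under every alternative run, the label number as a replicate block included (0 called). Samples sharing a label number did not deviate together (correlations -0.14 and -0.211 for numbers 1 and 2), so the numbers were not taken to pair samples.

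As reported, 2 members by 2 probes were called against control in each line, and 4 and 13 pathway genes. For miR-338-5p 1 member by 1 probe was called without background correction, with background subtracted, with median centring, under the image software's ratio, with probes above background in both dyes on all arrays, and with a trended and robust variance. It was 1 member in the authors' table, and 0 members by 0 probes on the arrays of the group alone. For miR-421 it was 1 member by 1 probe with background subtracted, with median centring and under the software's ratio, and 1 member in the authors' table. Pathway genes for miR-338-5p numbered 2 under the software's ratio and the authors' table, and 1 with no filter on dim probes or the arrays of the group alone. For miR-421 they numbered 6 with median centring, 8 under the software's ratio, and 7 with no filter or the arrays of the group alone. Leaving out 1 array at a time, 0 to 1 members (0 to 1 probes) were called in the miR-338-5p line and 0 to 3 members (0 to 3 probes) in the miR-421 line, with 1 to 4 and 1 to 10 pathway genes. The authors' table has 1 value a gene, so its probes were not counted.

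Of 402 recomputed log2 ratios of single members, 341 kept sign and side of the threshold, 33 lost the call, 7 gained one and 21 changed sign, all of them near 0 and uncalled. With median centring ERBB3 for miR-338-5p was -0.05, EGFR for miR-421 -0.03, AREG for miR-421 -0.07 and the TGFA difference -0.07. The TGFA difference was -0.01 with background subtracted, -0.09 under the software's ratio and the authors' table, and -0.02 with the replicate block, where HBEGF was -0.04. BTC for miR-421 was 0.06 without background correction and 0.16 under the software's ratio and the authors' table, and AREG for miR-421 was -0.01 as the mean of its probes. Leaving out 1 array, ERBB3 for miR-338-5p ran from -0.01 to 0.27. For miR-421 EGFR ran from -0.07 to 0.07, AREG from -0.2 to 0.2 and BTC from -0.06 to 0.03. The differences of TGFA and HBEGF ran from -0.03 to 0.02 and from -0.02 to 0.04.

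Over all probes 214 to 3650 were called in the miR-338-5p line (2476 as reported), 629 to 6961 in the miR-421 line (5950) and 0 to 89 between the lines (13). Medians of the authors' table were -0.16 to 0.03 by array, against -0.02 to 0.01 as reported here. Where fewer arrays or fewer probes entered a fit, that is how the alternative was built; otherwise the cause was not tested. Signal over background limits EGF, EREG, HBEGF and the second probes of EGFR, ERBB4 and TGFA.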

Other observations

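Some pathway genes, picked after their values were seen, had their highest value on miR-338-5p replicate 2 and their lowest on replicate 3, the order seen for AREG. ERRFI1, a feedback inhibitor of EGFR, stood at 0.16, 0.97 and -0.55 on miR-338-5p replicates 1, 2 and 3. DUSP6, a phosphatase of MAP kinases, stood at 0.11, 0.64 and -1.20. CBLC, a ubiquitin ligase of the receptors, stood at 0.04, 1.03 and -0.15, and LRIG3, a relative of LRIG1, at 0.45, 0.89 and 0.08. None of these genes was called in either line. Other genes of the list had the reverse order. Among them were IER3, an early response gene (0.16, -0.38 and 0.96), and HRAS (0.15, -0.4 and 0.53). RHBDF1 (-0.11, -0.43 and 0.2) and PIK3R2 (0.01, -0.16 and 0.13) had it too. Genes of either order were not counted over the list or over all genes, and a relation to AREG was not tested.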
